A study of Mus musculus with 2 samples.

Results

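Brequinar, given for 12 h, was examined in the 63.3 line of mouse acute myeloid leukemia by comparing the 1536 cells that carried the barcode of the 12 h brequinar culture with the 1503 cells of the 0 h culture of the same series. These 3039 cells were chosen by the authors' barcode call alone, out of 12540 cells with a condition. All cultures of the study were grown in RPMI with 10% dialyzed fetal bovine serum, glutamine and antibiotics, 0.5 µM beta-estradiol and 1% conditioned medium with stem cell factor. The brequinar cultures received 2 µM of the drug for 6, 12, 24 or 48 h, and a second series was washed and lost beta-estradiol for the same times, with its own 0 h culture. Lipid-anchored DNA barcodes marked the cells of each culture (MULTI-seq), and the pool of all 10 cultures was sequenced in 2 runs of 10x Genomics single-cell chemistry. The labels do not say whether the 0 h culture received solvent, and they list no untreated culture of 12 h, so drug, solvent and time in culture cannot be told apart. The assignment of each cell rested on these 2 barcodes, given 5' to 3' and in capitals throughout because every base is part of the tag.
Brequinar 12 h: TGAGACCT
Brequinar 0 h: AGAGAGAG

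Brequinar inhibits dihydroorotate dehydrogenase (DHODH), the mitochondrial enzyme that makes orotate on the way to uridine monophosphate, the source of UTP and CTP and, after reduction and methylation, of dCTP and dTTP. Cells can also build pyrimidine nucleotides from nucleosides taken up from outside, which dialysis removes from serum. A cell short of pyrimidines is short of building blocks for RNA and, in S phase, for DNA, and DHODH inhibitors are known to drive leukemia cells of this kind toward maturation. Nucleotides were not measured here.

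With 1 culture per condition no test was run, and nothing below has a replicate check. A level is given as counts of spliced unique molecular identifiers (UMIs) per 1000000 UMIs of the summed cells (CPM). Differences are ratios of these levels, with exact 95% intervals for counting error alone in brackets. The 12 h culture held 15957273 UMIs and the 0 h culture 19931921, with medians of 11740.5 and 14849 UMIs per cell. Cells with at least 10% mitochondrial UMIs made up 18.8% and 18.4%. A gene counted as measured if 1 of the cultures reached 20 CPM, and of 6000 such genes 812 (13.5%) were at least 1.5-fold higher at 12 h and 280 (4.67%) at least 1.5-fold lower. At 2-fold the counts were 211 (3.52%) and 45 (0.75%), 4.27% together. The 0 h culture of the withdrawal series, against the same 0 h culture, differed by 1.5-fold in 3 of 5490 genes (0.0546%). The split between higher and lower genes rests on the scaling. With sums scaled to a median ratio of 1, a shift of 0.11 on the log2 scale, 508 genes were higher and 443 lower. With a trimmed mean of log ratios, a shift of 0.18, 402 were higher and 586 lower. Medians of gene lists below are therefore set against the median of all genes measured, 0.10, and a list is called higher or lower only where its median kept its sign under both scalings. The line's myeloid progenitor markers were present in both cultures, with Mpo at 931 and 872 CPM and Ctsg at 4415 and 3064 CPM at 0 and 12 h. Markers of T and NK cells summed to 5.47 and 3.07 CPM, of megakaryocytes to 32.3 and 33.5 CPM, of erythroid cells to 195 and 167 CPM, of B lineage cells to 671 and 566 CPM and of eosinophils, mast cells and basophils to 1882 and 2198 CPM. Whether the last 2 sums stem from the line itself was not tested.

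**Figure D1:**
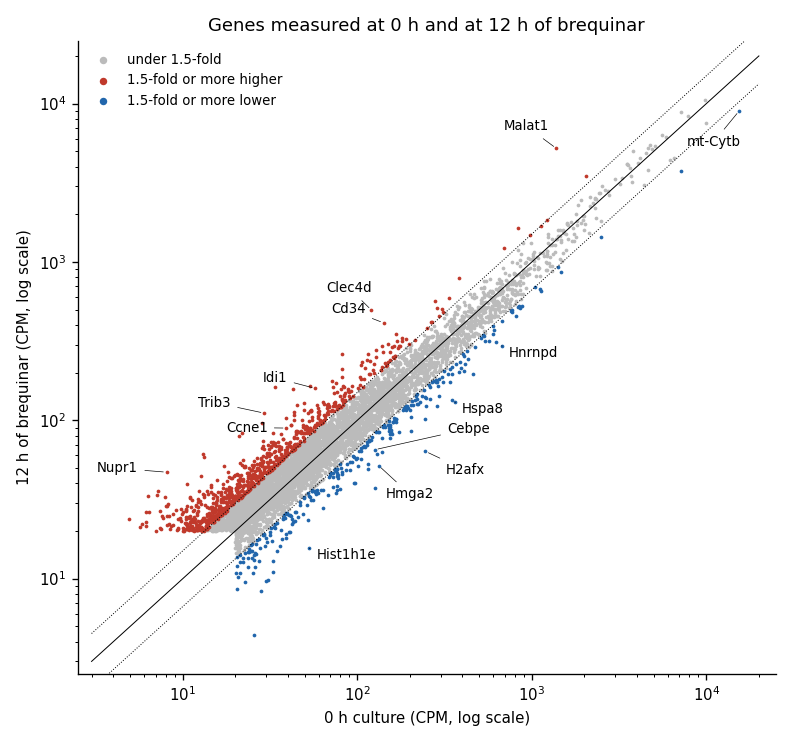
Level of each of the 6000 genes measured in the 0 h culture (horizontal axis, CPM, log scale) and at 12 h of brequinar (vertical axis, CPM, log scale). Each point is a gene, the solid line marks equal levels and the dotted lines 1.5-fold, and the 812 red points lie above and the 280 blue points below the dotted lines.

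The largest ratios among genes at 50 CPM or more belonged to genes of unlike functions. Clec4d, a C-type lectin receptor of myeloid cells, stood at 120.4, 151, 497, 403 and 260.5 CPM at 0, 6, 12, 24 and 48 h of brequinar, and its 12 h level was 4.13-fold that at 0 h (3.94 to 4.32). In the withdrawal series Clec4d was at 129.7 CPM at 0 h and 140.4 CPM at 12 h. Malat1, a long noncoding RNA retained in the nucleus, stood at 1383, 2478, 5212, 4079 and 3498 CPM, 3.77-fold higher at 12 h (3.72 to 3.82). Both genes were thus at their highest of the brequinar times at 12 h. The Malat1 difference lay in most cells. In cells thinned to 2500 UMIs the median was 11 Malat1 UMIs at 12 h and 3 at 0 h, and 93.7% of the 12 h cells lay above the 0 h median. Neat1, another nuclear noncoding RNA, was 2.56-fold higher (82.2 and 210.1 CPM).

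Other genes of this group were Lat, an adaptor of immune receptor signaling (4.67-fold, 4.07 to 5.37), Ffar2, a receptor for short-chain fatty acids (4.39-fold), and the transcriptional regulator Tsc22d1 (3.81-fold). Cox6a2, a subunit of cytochrome c oxidase known from muscle, stood at 81.2 and 261 CPM (3.21-fold, 3.03 to 3.41). Acot2, a mitochondrial acyl-CoA thioesterase, stood at 53.4 and 164 CPM (3.07-fold), and Ensa, an inhibitor of the phosphatase PP2A in mitosis, at 44.9 and 124 CPM (2.77-fold). Prune2 (3.81-fold), Tmem29 (3.66-fold) and Milr1 (3.41-fold) completed the set with Trib3, Cd34 and Idi1, which are described with their groups. Many of the set were also higher at 12 h of withdrawal over its own 0 h culture. The ratios there were 11.6 for Ffar2, 3.95 for Milr1, 2.96 for Cox6a2, 2.95 for Tsc22d1, 2.50 for Malat1 and 2.24 for Lat. Trib3 (1.93), Acot2 (1.70) and Cd34 (1.54) followed. Tmem29 (1.46), Ensa (1.35), Clec4d (1.08) and Prune2 (1.05) were under 1.5-fold, and Idi1 was lower (0.550).

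At the other end H2afx, the histone variant that is phosphorylated at damaged DNA, had the lowest ratio among genes at 50 CPM or more. It stood at 245, 145, 63.7, 130 and 176 CPM over the brequinar times, so the 12 h culture was the lowest of them, 3.85-fold below 0 h (3.60 to 4.13). Fkbp11, a peptidyl-prolyl isomerase of the secretory pathway, was 3.41-fold lower (127 and 37.2 CPM). Others of the lowest set were Hnrnpd and Syncrip, which encode RNA-binding proteins of the hnRNP family (2.27- and 2.32-fold lower), the helicase gene Ddx39 (2.34-fold lower) and the spliceosome gene Txnl4a (2.41-fold lower). Rgcc, a regulator of the cell cycle, was 2.58-fold lower, the guanine deaminase gene Gda 2.37-fold lower and the kinase gene Mapkapk3 2.43-fold lower.

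Of the enzymes of de novo pyrimidine synthesis, none of the 8 measured was 1.5-fold higher or lower, against 18.2% of all genes. Their median log2 ratio was -0.04. With the trimmed mean scaling 1 of the 8 was lower and the median was -0.20. So few genes cannot set the list apart from the share of all genes. Dhodh itself stood at 25.5, 17.0, 24.0, 11.7 and 11.8 CPM, with a 12 h ratio of 0.940 (0.821 to 1.08). Cad, which carries out the first steps, had a ratio of 1.31 (48.0 and 62.8 CPM), and Umps, which makes uridine monophosphate from orotate, 0.748 (0.711 to 0.787, 197 and 148 CPM). Of the 7 measured genes of pyrimidine uptake, salvage and breakdown, 1 was higher. This was Dck, deoxycytidine kinase, which phosphorylates salvaged deoxynucleosides, at 59.8, 63.4, 106, 86.8 and 57.1 CPM and 1.78-fold higher at 12 h (1.65 to 1.92). Upp1, uridine phosphorylase, lay near 0 in both cultures, at 0.401 CPM at 0 h and 0.125 CPM at 12 h.

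Genes of deoxynucleotide supply went both ways, with 3 of 13 higher and 3 lower, beside 13.5% and 4.67% of all genes. The balance rests on the settings, as 1 was higher and 3 lower under both other scalings, and 3 higher and 1 lower with each cell weighted alike. Rrm2b, the p53-inducible subunit of ribonucleotide reductase, stood at 11.1, 57.5, 23.1, 11.4 and 11.8 CPM, so it was 2.07-fold higher at 12 h (1.75 to 2.46) but had its highest level at 6 h. Samhd1, which breaks down dNTPs, was 1.60-fold higher (17.6 and 28.0 CPM). Shmt1, which supplies one-carbon units for thymidylate, was 1.71-fold lower (61.9 and 36.2 CPM) and the thymidylate kinase gene Dtymk 1.54-fold lower. The thymidylate synthase gene Tyms had a ratio of 1.26 and the S-phase reductase subunit gene Rrm2 a ratio of 1.03. In purine synthesis 1 of 18 genes was higher and 2 were lower. Gart, a trifunctional enzyme of that pathway, was 1.72-fold and Adsl 1.55-fold lower. Mthfd2, a mitochondrial folate enzyme that also responds to ATF4, was 2.14-fold higher (2.04 to 2.24).

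Cholesterol and fatty acid synthesis stood out by its counts. Of its 23 measured genes 14 were at least 1.5-fold higher and 1 lower, against 13.5% and 4.67% of all genes, with a median log2 ratio of 0.57 beside 0.10. Idi1, which isomerizes isopentenyl diphosphate, stood at 57.5, 39.9, 159, 57.4 and 58.1 CPM over 0, 6, 12, 24 and 48 h and was 2.76-fold higher at 12 h (2.57 to 2.96). The other 4 cultures of the series thus lay between 39.9 and 58.1 CPM. Msmo1, a sterol demethylase, was 2.23-fold higher (72.6 and 162 CPM) and Cyp51, lanosterol demethylase, 1.96-fold higher (80.2 and 157 CPM). Fatty acid enzymes were among the higher members too, with the desaturase gene Scd2 at 1.88-fold and the synthase gene Fasn at 1.62-fold. The regulator genes Srebf1 (1.63-fold) and Srebf2 (1.54-fold) were higher as well. Hmgcs1, an early enzyme of the pathway, did not follow them, at 77.3 and 80.4 CPM with a ratio of 1.04. The lower member was Fabp5, a fatty acid carrier, at 260.4 and 162 CPM.

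In 14 of the 23 genes the 12 h level was the highest of the 5 brequinar times, against 1257 of the 6000 genes measured. With the trimmed mean scaling 5 members were at 1.5-fold or more and the median was 0.42, so the count depends on the scaling while the sign does not. The summed level of the whole list, unmeasured members included, was 1487, 1197, 2214, 1353 and 1541 CPM. In thinned cells the median was 5 UMIs of the list at 12 h and 3 at 0 h. RefSeq promoter windows (GRCm38.p6) were matched for 15 of the 23 genes, 65.2%, so a share of motifs over the list would be void and is not given. The 2 higher members with the largest ratios among those with a single window and a CCAAT match are shown because several sterol genes are known to use the CCAAT box of NF-Y beside the sterol regulatory element. They hold the 250 bases before the start, 5' to 3' on the gene's strand, with CCAAT or its reverse complement in capitals. Idi1 lies at chr13:8885356-8885605 on the plus strand and Msmo1 at chr8:64733579-64733828 on the minus strand.
Idi1: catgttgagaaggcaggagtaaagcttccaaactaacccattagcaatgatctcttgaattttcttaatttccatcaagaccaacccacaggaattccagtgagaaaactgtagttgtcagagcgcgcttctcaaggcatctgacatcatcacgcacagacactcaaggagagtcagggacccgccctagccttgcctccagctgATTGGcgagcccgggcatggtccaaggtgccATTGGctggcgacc
Msmo1: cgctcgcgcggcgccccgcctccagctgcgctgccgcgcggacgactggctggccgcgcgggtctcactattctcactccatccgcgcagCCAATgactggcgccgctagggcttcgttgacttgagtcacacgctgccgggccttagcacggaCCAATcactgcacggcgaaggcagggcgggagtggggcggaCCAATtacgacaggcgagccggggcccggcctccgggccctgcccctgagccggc

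These windows were picked for holding CCAAT, with 2 matches in Idi1 and 3 in Msmo1. Either strand of the full window of 300 bases holds it in 37.4% of all 32851 windows of the reference table. Neither full window holds TCACNCCAC, the letters searched for the sterol regulatory element on both strands, which says only that these letters are not there.

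**Figure D2:**
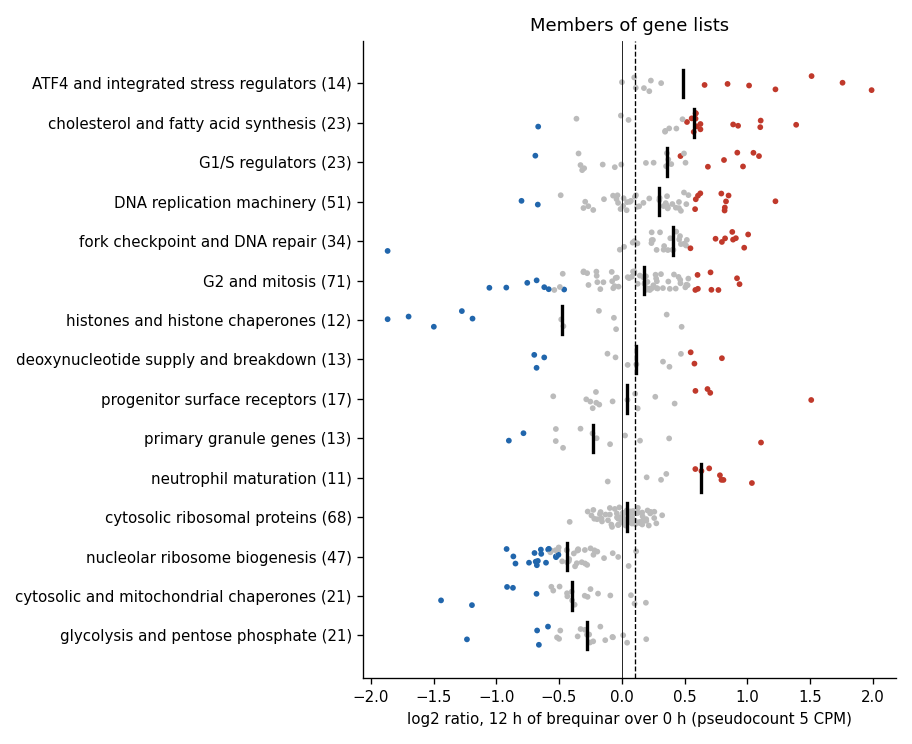
Log2 ratio of 12 h of brequinar over 0 h (horizontal axis) for each measured member of 15 gene lists (rows, with the number measured), 1 point per gene, red if at least 1.5-fold higher and blue if at least 1.5-fold lower. Thick bars are list medians and the dashed line the median of all genes measured, 0.10. The sterol list sits right of it at 0.57 and nucleolar ribosome biogenesis left of it at -0.44.

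Genes that commit cells to S phase and copy DNA were higher as groups by their medians over all cells, but not within the G1-like class described below. Beside 13.5% and 4.67% of all genes, 7 of 23 regulators of the G1/S transition were higher and 1 lower (median 0.36). Both E-type cyclins, the partners of CDK2 at the start of replication, were among them. Ccne1 stood at 39.2, 23.5, 89.3, 40.9 and 21.6 CPM (2.28-fold at 12 h, 2.09 to 2.49), and Ccne2 at 12.2, 7.09, 30.6, 14.7 and 11.1 CPM (2.51-fold, 2.15 to 2.94). The 12 h culture was the highest of the 5 for each. E2f1, a transcription factor of S-phase genes, was 1.86-fold higher, and its dimer partner gene Tfdp2 2.02-fold. Inhibitors of cyclin-dependent kinases also belonged to the higher set, with Cdkn2d at 2.02-fold (73.6 and 149 CPM). Cdkn1a, which encodes p21, had a ratio of 1.34 (1.17 to 1.53). Ccnd2, the D-type cyclin gene, was 1.67-fold lower (90.9 and 54.5 CPM).

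Of 51 genes of the DNA replication machinery, 10 were higher and 2 lower (median 0.30). These counts, 19.6% and 3.92%, were not far from the 13.5% and 4.67% of all genes. At 2-fold 1 member was higher, beside 3.52% of all genes. In 32 of the 51 the 12 h level was the highest of the brequinar times, against 1257 of the 6000 genes measured. Cdc7, the kinase that fires origins, was 2.49-fold higher (2.30 to 2.71), with 43.2, 47.9, 108, 69.8 and 39.7 CPM. The catalytic subunit gene of DNA polymerase epsilon, Pole, was 1.85-fold higher (44.4 and 82.1 CPM), and the clamp loader gene Rfc5 1.81-fold (125 and 226 CPM). Lig1, which joins Okazaki fragments, stood at 164 and 256 CPM (1.56-fold). The sliding clamp gene Pcna differed little, at 111 and 117 CPM (a ratio near 1). Lower members were Nasp, a histone chaperone (308 and 175 CPM, 1.76-fold lower), and the uracil glycosylase gene Ung (76.6 and 46.3 CPM, 1.65-fold lower). With either scaling 6 members of the list were higher. The thinned cells held a median of 18 UMIs of these genes at 12 h and 15 at 0 h, and 64.4% of the 12 h cells lay above the 0 h median.

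Fork protection and DNA repair genes had a median log2 ratio of 0.41, with 9 of 34 higher and 1 lower. Of all genes 13.5% were higher and 4.67% lower. The helicase gene Brip1 was 2.23-fold higher (22.7 and 50.6 CPM) and Brca1, of homologous recombination, 2.09-fold (17.7 and 36.9 CPM). Clspn, which encodes the adaptor of the ATR checkpoint, stood at 63.7, 52.5, 130.2, 123 and 81.0 CPM, 2.04-fold higher at 12 h (1.90 to 2.19). The lower member was H2afx.

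Promoters of replication genes are known to carry E2F sites, which is why the letters TTNNCGC were searched on both strands of windows from 250 bases before to 50 bases after each start. Of the 42 replication genes with a window 73.8% held a match in any of their windows, against 41.4% of the 4820 measured genes with a window and 20.2% of all windows. Among the members that were higher it was 8 of 9. The list was chosen for its function, so this describes the list and not its difference at 12 h. Of G1/S regulators 13 of 19 held a match, but 1 of the 6 that were higher. Over all 657 genes higher at 12 h with a window the share was 35.9%. Rfc5, at chr5:117389024-117389273 on the minus strand, is shown as a higher member with a single window, its matches in capitals. It was picked for holding a match before the start.
Rfc5: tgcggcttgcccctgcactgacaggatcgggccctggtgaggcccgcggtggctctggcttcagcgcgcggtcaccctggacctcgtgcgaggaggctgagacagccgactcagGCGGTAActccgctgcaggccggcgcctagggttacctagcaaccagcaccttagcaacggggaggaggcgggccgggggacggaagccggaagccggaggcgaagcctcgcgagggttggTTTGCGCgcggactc

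By their medians over all cells, histone and histone chaperone genes were lower while replication genes were higher. Beside 4.67% and 13.5% of all genes, 5 of 12 measured genes of histones and histone chaperones were lower and none higher (median -0.47). They were the linker histone genes Hist1h1a (25.5 and 4.39 CPM, 5.81-fold lower, 4.52 to 7.57), Hist1h1e (3.41-fold lower, 2.97 to 3.93) and Hist1h1b (203 and 86.1 CPM, 2.36-fold lower), the core histone gene Hist1h2ae (3.15-fold lower) and H2afx. H2afx, Hist1h1e and Hist1h2ae had their lowest brequinar level at 12 h. Hist1h1a and Hist1h1b had theirs at 48 h, at 3.25 and 66.6 CPM. The replication-independent variant genes H3f3b and H2afz had ratios of 0.969 and 0.879. Most replication-dependent histone mRNAs lack a poly(A) tail, on which the assay relies, and near-identical copies can share reads, so these levels cover only part of histone RNA.

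Of 71 measured genes of G2 and mitosis 8 were higher and 7 lower, 11.3% and 9.86%, beside 13.5% and 4.67% of all genes. Under both other scalings 5 were higher and 10 lower, and the median of 0.18 became 0.07 and 0.01. With each cell weighted alike 13 were higher and 5 lower. The higher genes included the condensin subunit genes Ncapg2 (2.01-fold) and Ncaph (1.74-fold) and the kinetochore genes Spc24 (1.95-fold, 128 and 249.8 CPM) and Spc25 (1.75-fold). The lower genes included Anp32e, Hmmr and Cdc25c and 4 with lower ratios. Ccnb2, a B-type cyclin that drives entry into mitosis, stood at 204, 129, 106, 295 and 300.0 CPM, 1.94-fold lower at 12 h (1.83 to 2.05). Cdc20, which activates the anaphase-promoting complex, stood at 115, 86.3, 52.8, 92.4 and 123 CPM, 2.18-fold lower (2.01 to 2.36), Ube2c was 1.70-fold and Ccnb1 1.63-fold lower. For Ccnb2 and Cdc20 the 12 h culture was the lowest of the brequinar times. Mki67, a proliferation marker, had a ratio of 1.46 (119 and 174 CPM).

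The S and G2/M classes held similar shares of cells at 0 and 12 h, and cells spread less widely in their G2/M genes at 12 h but not in their S-phase genes. Cells were scored for S and G2/M genes after thinning to 2500 UMIs, which left out 212 shallower cells at 12 h and 194 at 0 h. The S class held 34.4% of the 12 h cells (31.8 to 37.0) and 32.5% of the 0 h cells, and the G2/M class 60.1% and 59.8%. The G1-like class held 5.51% (4.35 to 6.88) and 7.64% (6.26 to 9.21). At 6 h that class held 29.8% of the cells and at 24 h the G2/M class held 87.3%, so the 12 h culture was closer to 0 h in these shares than the cultures before and after it. The middle 50% of cells spanned G2/M scores of 0.06 to 0.26 at 12 h and 0.00 to 0.30 at 0 h. Counted as UMIs of the G2 and mitosis list per thinned cell, the 10th and 90th percentiles were 14 and 37 at 12 h and 12 and 43 at 0 h, around medians of 26 and 23. For the replication list they were 10 and 26 at 12 h and 8 and 22 at 0 h, and the middle 50% of S scores spanned -0.05 to 0.19 and -0.11 to 0.12. Within the S class 37 of the 69 measured G2 and mitosis genes were higher and 2 lower, and within the G2/M class 6 of 74 were higher and 10 lower. Over all genes 13.8% were higher and 4.73% lower in the S class, and 14.6% and 5.39% in the G2/M class. The classes were called from genes of the same kind, so these counts depend on the calls, and free RNA enters the scores. Of sterol genes 11 of 23 were higher and 1 lower in S, and 14 of 24 higher and 1 lower in G2/M. In the G1-like class 7 of 23 were higher and 3 lower, where 15.7% of all genes were higher and 7.94% lower. Of replication genes 6 of 51 were higher and 14 lower in that class (median -0.20). Of G1/S regulators 5 of 22 were higher there and 6 lower (median -0.26). The replication medians were 0.24 in S and 0.26 in G2/M, and those of G1/S regulators 0.29 and 0.40. The G1-like class held only 73 and 100 cells, called by low scores in genes of this kind.

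**Figure D3:**
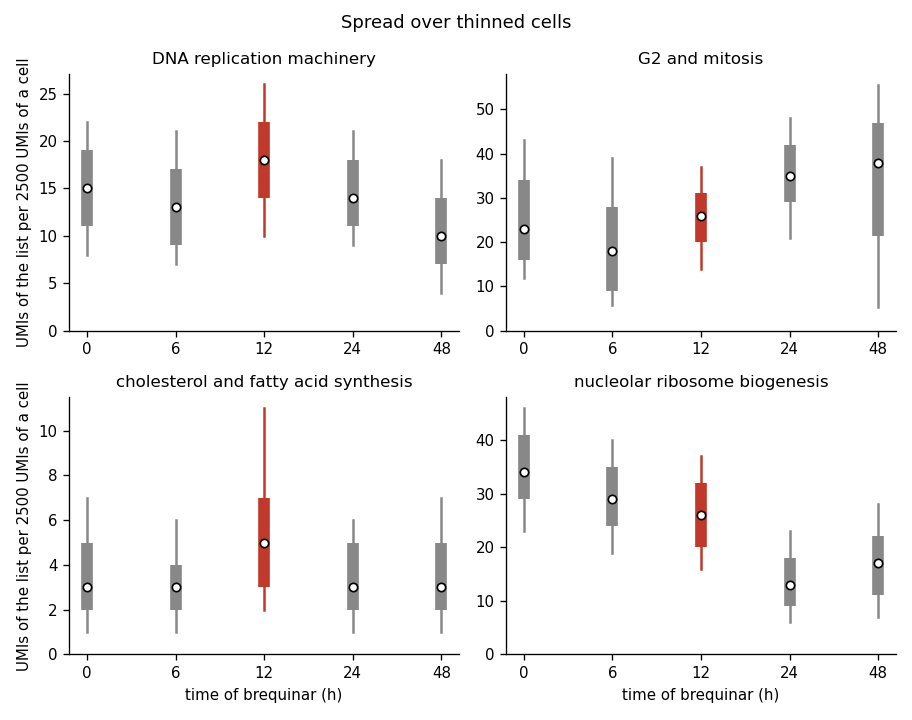
UMIs of 4 gene lists per cell thinned to 2500 UMIs (vertical axes) at 0, 6, 12, 24 and 48 h of brequinar (horizontal axes). Circles are medians over cells, thick bars the middle 50% and lines the 10th to 90th percentile, with 12 h in red. The replication list is highest at 12 h (median 18) and the spread of the G2 and mitosis list narrowest among 0, 6 and 12 h (14 to 37).

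Regulators of the integrated stress response, which acts through the translation factor eIF2 and the transcription factor ATF4, were higher for 7 of 14 and lower for none (median 0.49). Of all genes 13.5% were higher and 4.67% lower at 12 h. Nupr1, a small stress-induced chromatin protein, stood at 8.08, 169, 47.0, 6.07 and 10.7 CPM, 5.82-fold higher at 12 h (4.90 to 6.94). Trib3, a pseudokinase that feeds back on ATF4, stood at 29.2, 156, 111, 6.54 and 15.1 CPM, 3.79-fold higher (3.45 to 4.17). The 6 h culture was higher than the 12 h culture for each, and the 24 h culture lower than 0 h. At 6 h 9 of the 14 regulators measured there were higher, against 8.82% of all genes at that time (4.97% were lower). Gdf15, a secreted stress cytokine, was 3.73-fold higher (10.6 and 39.5 CPM) and Ddit3, the factor CHOP, 2.04-fold (277 and 565 CPM). Atf4 itself stood at 229 and 286 CPM, under 1.5-fold. Of 19 measured genes of amino acid synthesis and transport 1 was higher, namely Mthfd2, and Asns, asparagine synthetase, stood at 132, 248, 183, 27.7 and 64.7 CPM with a ratio of 1.39 (1.32 to 1.47). Of 21 cytosolic aminoacyl-tRNA synthetase genes Aars was higher (1.75-fold) and Farsa, Lars and Rars were lower.

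The composite element bound by ATF4 and C/EBP factors was searched as TGATGNAA on both strands. It was present in 3 of the 12 stress regulators with a window, all 3 among the 7 that were higher. It was present in 2.74% of measured genes and 3.97% of all windows. Over all genes with a window the share was 3.96% of those higher at 12 h and 3.64% of those lower. As this list too was chosen for its function, the counts describe the list and not its difference at 12 h. Nupr1, at chr7:126625471-126625720 on the minus strand, has a single window and is shown with its match in capitals. It too was picked for holding a match.
Nupr1: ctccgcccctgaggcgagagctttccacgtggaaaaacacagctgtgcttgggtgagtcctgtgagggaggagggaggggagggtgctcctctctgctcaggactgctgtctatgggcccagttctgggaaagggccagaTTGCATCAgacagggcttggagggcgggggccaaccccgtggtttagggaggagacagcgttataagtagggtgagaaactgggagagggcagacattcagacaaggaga

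Of 47 genes of nucleolar ribosome biogenesis 16 were lower and none higher (median -0.44), beside 4.67% and 13.5% of all genes. The lower genes included Gnl3, nucleostemin (261 and 136 CPM, 1.92-fold lower, 1.83 to 2.02). Nop58, a core protein of box C/D snoRNPs, was another, at 417, 315, 227, 110.3 and 194 CPM (1.84-fold lower at 12 h). With a trimmed mean scaling 31 were lower. None was 2-fold lower, while at 24 h 41 of 47 were 1.5-fold lower, beside 13.8% of all genes. The nucleophosmin gene Npm1 had a ratio of 0.855 (3764 and 3218 CPM), and none of 68 cytosolic ribosomal protein genes was past 1.5-fold, with a median of 0.04 that became -0.07 and -0.14 under the other scalings. Myc, a transcription factor of growth genes, was 1.74-fold lower (219 and 126 CPM, 1.65 to 1.83), and Hmga2, a chromatin protein of fetal and leukemic cells, 2.56-fold lower (132 and 51.8 CPM). The lower ribosome biogenesis levels lay in most cells, as 80.3% of the thinned 12 h cells were below the 0 h median of 34 UMIs.

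Chaperones of the cytosol and mitochondria had 5 of 21 lower and none higher (median -0.40), beside 4.67% and 13.5% of all genes. Hspa8, the constitutive HSP70, stood at 362, 116, 130.2, 108 and 157 CPM, 2.78-fold lower (2.65 to 2.92), so the lower level was already present at 6 h. The HSP90 cochaperone genes Ppid and Fkbp4 were 2.34- and 1.84-fold lower and Hsph1 1.97-fold. In 88.6% of the thinned 12 h cells the list lay below the 0 h median of 35 UMIs. Glycolysis and pentose phosphate genes had 4 of 21 lower and none higher (median -0.28), beside 4.67% and 13.5% of all genes, and 7 were lower under both other scalings. Among the 4 were the lactate transporter gene Slc16a3 (2.97-fold lower) and the enolase gene Eno1 (1.61-fold lower).

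**Figure D4:**
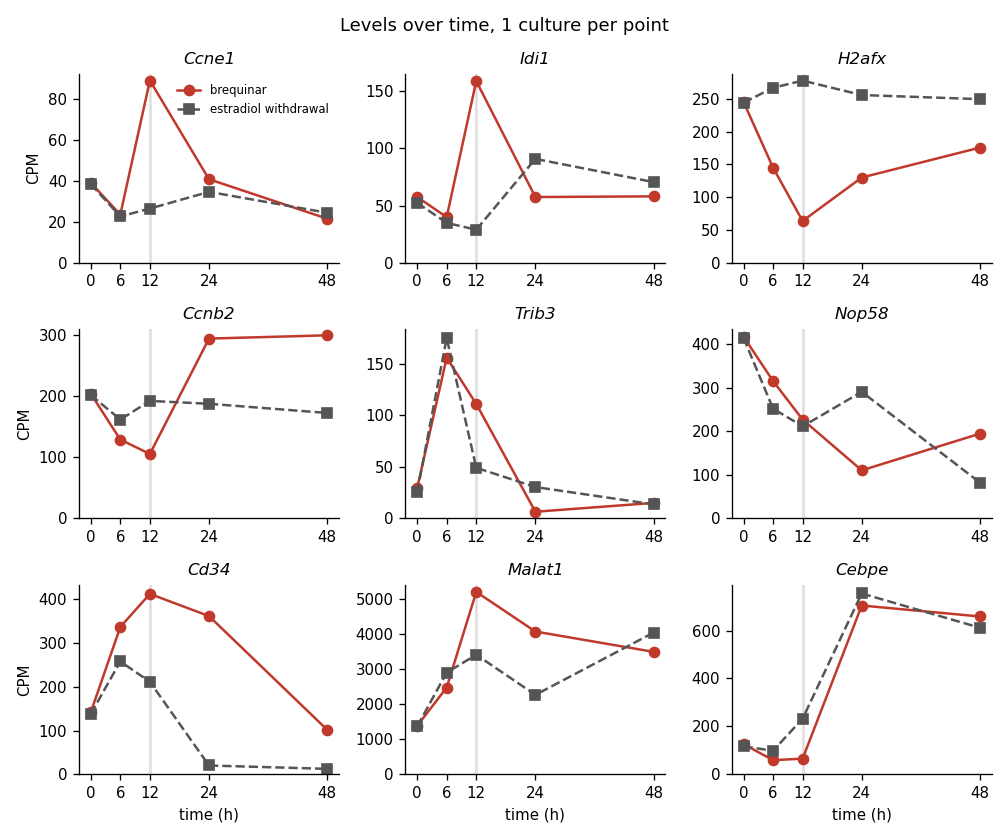
Level of 9 genes (vertical axes, CPM, from 0) over 0, 6, 12, 24 and 48 h (horizontal axes) of brequinar (red circles) and of beta-estradiol withdrawal (grey squares), 1 culture per point and so no error bars. Ccne1 and Idi1 peak at 12 h of brequinar (89.3 and 159 CPM), H2afx is lowest there (63.7 CPM), and Cebpe is at 65.2 CPM at 12 h and 704 CPM at 24 h.

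Genes of the progenitor state and of maturation gave a mixed picture at 12 h. Cd34, a surface marker of progenitors, was 2.91-fold higher (2.79 to 3.05), at 141 and 412 CPM. Meis1, a homeobox partner of HOXA9, was 2.26-fold higher (41.6 and 93.9 CPM), Runx1 2.26-fold and Flt3 1.53-fold (90.8 and 139 CPM), while Kit had a ratio of 0.878 and Hoxa9 one of 0.958. In all, 4 of 17 progenitor receptor genes were higher and none lower, and 5 of 19 progenitor transcription factor genes were higher and 1 lower, beside 13.5% and 4.67% of all genes. With the trimmed mean scaling 1 of 16 receptor genes was higher and 1 lower, and 3 of 17 factor genes were higher and 4 lower. The medians of 0.05 and 0.07 turned negative under both other scalings. Factors of myeloid maturation were not higher as a group, with 2 of 13 higher and 2 lower. Cebpe, which drives secondary granule genes, stood at 126, 58.9, 65.2, 704 and 659 CPM, 1.93-fold lower at 12 h (1.80 to 2.08). Id1, an inhibitor of helix-loop-helix factors, stood at 52.0, 25.9, 23.3, 202 and 157 CPM (2.23-fold lower). For both genes the 12 h culture lay below 0 h and the 24 h culture above it. Spi1, which encodes PU.1, stood at 187 and 186 CPM (ratio 0.995, 0.948 to 1.04) and Cebpa at 58.3 and 39.0 CPM (ratio 0.670).

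Primary granule genes of promyelocytes had 2 of 13 lower and 1 higher (median -0.23), beside 4.67% and 13.5% of all genes. With the median ratio scaling 4 were lower and with the trimmed mean 5. Prtn3, proteinase 3, stood at 2481 and 1439 CPM (1.72-fold lower) and Ms4a3 at 382 and 202 CPM (1.89-fold lower), while the lectin receptor gene Clec12a was 2.29-fold higher (43.6 and 99.9 CPM). Integrin Itgam, which encodes CD11b, had 0 counts at 0 h and 0.313 CPM at 12 h. Genes of neutrophil maturation had 7 of 11 higher and none lower (median 0.63), beside 13.5% and 4.67% of all genes. Among the 7 were S100a9 (53.4 and 115 CPM, 2.15-fold) and Chil3 (35.4 and 65.8 CPM, 1.86-fold). Their levels in free RNA, measured in barcodes of 2 to 100 UMIs, were far above those in either culture, at 1186 CPM for S100a9 and 543 CPM for Chil3. Against the other 0 h culture 4 of 12 members were higher, where 14.5% of all genes were higher and 4.94% lower, and the median was 0.23, and with each cell weighted alike 3 of 11 were higher. With 5% of each sum removed as free RNA, nothing was left of S100a8 and S100a9 at 0 h, so no ratio could be given for them, and 8 of 11 members were higher with a median of 0.74. The other 0 h culture alone, over the 0 h culture used here, had 3 of 12 members higher, beside 3 of all 5490 genes (0.0546%). These members were thus all the genes at least 1.5-fold apart between the 0 h cultures. The difference was not general over cells. Within the S class 2 of 11 members were higher and 3 lower (median -0.09), beside 13.8% and 4.73% of all genes. In the G2/M class 7 of 12 were higher (median 0.57), beside 14.6% of all genes. In the G1-like class, with 73 cells at 12 h and 100 at 0 h, 11 of 14 were higher (median 1.67), beside 15.7%.

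Withdrawal of beta-estradiol for 12 h, against its own 0 h culture, gave 785 genes higher (13.4%) and 656 lower (11.2%) of 5869, 24.6% together. Of the 5673 genes measured in both comparisons, 626 were higher with brequinar and 653 with withdrawal, and 249 were in both sets, 39.8% of the brequinar set and 38.1% of the withdrawal set. Lower genes numbered 278 (4.90%) and 651 (11.5%) with 143 in common, 51.4% and 22.0% of these sets. In opposite directions 17 genes were higher with brequinar and lower with withdrawal, 2.72% of the 626, and 8 the reverse, 2.88% of the 278. Both shares were below the 11.5% of all these genes that were lower, and the 11.5% that were higher, with withdrawal. With withdrawal 9 of 19 sterol genes were lower and 1 higher, and 19 of 50 replication genes were lower and 1 higher. In the direct ratio of the 12 h cultures 13.2% of all genes were higher with brequinar and 7.33% lower, and 21 of 22 sterol and 34 of 51 replication genes were higher. Ribosome biogenesis and chaperone genes were lower under either treatment, with 32 of 47 and 12 of 21 lower at 12 h of withdrawal. Of histone and histone chaperone genes 1 of 14 was lower and 2 were higher there.

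Single genes marked the contrast. Sdc1, the proteoglycan syndecan, stood at 158 CPM with brequinar and 15.6 CPM with withdrawal, 10.1-fold apart (8.66 to 11.9). Flt3 was 6.67-fold apart (139 and 20.8 CPM), Dab2, an endocytic adaptor, 6.44-fold (55.8 and 8.66 CPM) and Aebp1 7.34-fold (36.5 and 4.98 CPM), although Aebp1 was below its 0 h level under both treatments. On the other side Id1 was 4.48-fold, H2afx 4.36-fold, Cebpe 3.56-fold, Pim1 3.32-fold and the kinase gene Tec 3.31-fold higher with withdrawal. Pim1, a survival kinase, was above 0 h under both, at 269 CPM with brequinar and 891 CPM with withdrawal. Esr1, the estrogen receptor gene, was low throughout, at 4.87 and 6.33 CPM at 0 and 12 h of brequinar.

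**Figure D5:**
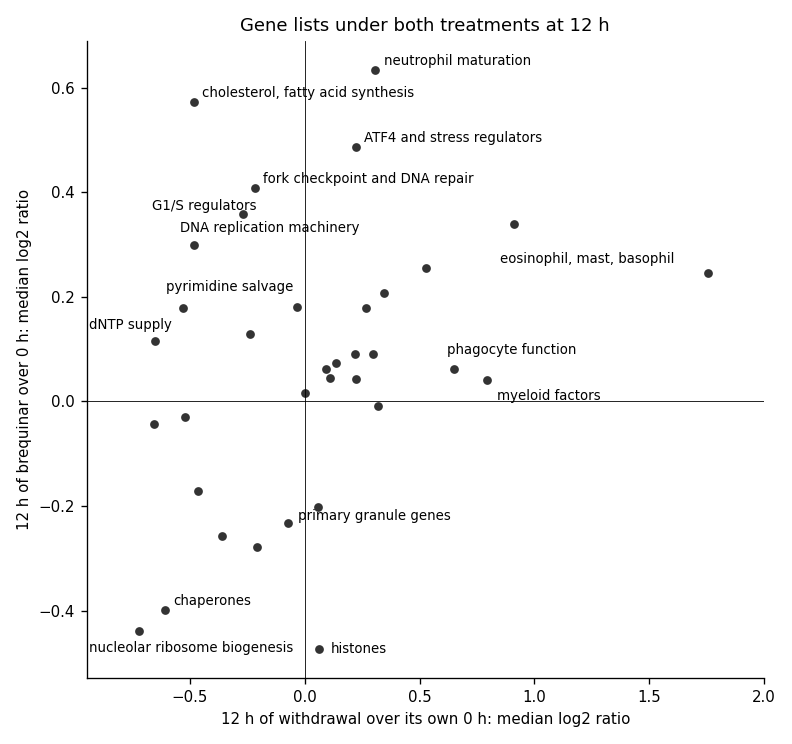
Median log2 ratio of each gene list with 6 or more measured members, for 12 h of withdrawal over its own 0 h culture (horizontal axis) and 12 h of brequinar over 0 h (vertical axis), 1 point per list. Cholesterol and fatty acid synthesis lies at -0.48 and 0.57 and nucleolar ribosome biogenesis at -0.72 and -0.44.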

How the data were processed

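The authors deposited raw counts of spliced UMIs per barcode and gene, with both runs in 1 matrix, and a barcode call for 15582 cell barcodes. Tools named in the submitters' processing notes, with no roles given, are Cell Ranger, bustools 0.39.4 and kallisto 0.46. The genome build is not given in the sources used here. Barcodes called doublet (2777, 17.8%) or negative (265) were left out, no further filter or doublet caller was applied, and barcodes do not show their run. Counts were summed per condition and scaled to CPM. Genes were measured if 1 culture reached 20 CPM, 1.5-fold was the call, and log2 ratios used a pseudocount of 5 CPM. Intervals are exact conditional binomial (Clopper-Pearson), and a count of 0 allows up to 3 counts. The cultures hold 15957273 and 19931921 UMIs, so that limit is 0.188 and 0.151 CPM. Of these steps the ratios, their intervals and the 1.5-fold call were tested on simulated counts. Phase scores used scanpy 1.11.5. RefSeq windows of 250 bases before and 50 after each start were searched for motifs.

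The comparison, the 41 gene lists and the rules were chosen with earlier results of these data known. Genes named are the 14 highest and 14 lowest at 50 CPM or more, examples with the largest ratios of each list, the 5 largest and 5 smallest against withdrawal, and a short set always named. Where the text names another gene (Neat1, Hmgcs1, Tyms, Rrm2, Fasn, Lig1, Srebf1, Srebf2, H3f3b, H2afz, Eno1 and the like) it was chosen for its role after its values were seen. Some list members are not reported here by name. Alternatives were another 0 h culture, 2 scalings, equal weight of cells, filters on genes and cells, 2-fold, a pseudocount of 1 CPM, free RNA removed and phase weights. A further one, which left out shallow, deep and mitochondria-rich cells together, and the sterol element search were added after seeing the data.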

Additional observations from a re-analysis of the deposited data

Results flagged for a closer look

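At 12 h, 10 of the genes named were at least 1.5-fold apart from 0 h in opposite directions under brequinar and under withdrawal, each against the 0 h culture of its own series. This count rests on the ratios and did not require 20 CPM in the withdrawal series. With 1 culture per condition the difference between the treatments was not tested. Idi1, Sdc1, Dab2, Flt3, Tec, Cebpe and Id1 were among the 5 largest and 5 smallest ratios of brequinar to withdrawal, a rule of naming. That rule favors opposite directions, so the count of 10 does not measure how common they are. Of the 5673 genes measured in both comparisons, 17 were higher with brequinar and lower with withdrawal, and 8 the reverse. These were 2.72% of the genes higher and 2.88% of the genes lower with brequinar. Higher with brequinar were Idi1 (2.76-fold, against a ratio of 0.550 with withdrawal), Ccne2 (2.51-fold and 0.569), Dck (1.78-fold and 0.666), Sdc1 (1.77-fold and 0.165), Dab2 (1.76-fold and 0.289), Jun, an immediate early transcription factor gene (1.62-fold and 0.616), and Flt3 (1.53-fold and 0.234). Lower with brequinar were Tec (ratio 0.646, against 2.05-fold with withdrawal), Cebpe (ratio 0.518, against 1.99-fold) and Id1 (ratio 0.448, against 1.83-fold). For Jun the levels were 14.2 and 22.9 CPM at 0 and 12 h of brequinar and 13.9 and 8.57 CPM at 0 and 12 h of withdrawal. Ccne2 and Jun were below 20 CPM at both 0 and 12 h of withdrawal. Neither gene thus counted as measured in that comparison, and neither is among the 17 genes.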

How the results depend on the processing

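Of 2224 values of 159 named genes under 14 alternatives, 1904 stayed within the counting interval, 320 moved outside it and none reversed. The limits of 5 and 50 CPM, the 2-fold call and the pseudocount leave the ratio of a gene unchanged. Their values could not move, so the count of 1904 overstates how stable the ratios were. With median ratio scaling 508 genes were higher and 443 lower, and higher members numbered 6 for replication and 9 for sterol synthesis, with 8 chaperones lower. With trimmed mean scaling 402 were higher and 586 lower, with 6 replication, 5 sterol and 4 neutrophil maturation genes higher and 31 ribosome biogenesis and 11 chaperone genes lower. With cells weighted alike 14 fork and repair and 3 neutrophil maturation genes were higher, and against the other 0 h culture 4 of the latter. At 5 CPM or more 1737 genes and 14 fork genes were higher and 14 genes of the histone and histone chaperone list lower. At 50 CPM or more 349 genes and 7 sterol genes were higher and 3 genes of the histone and histone chaperone list lower. At 2-fold 211 genes were higher and 45 lower, with 4 G1/S, 1 replication, 5 fork, 3 sterol and 1 neutrophil maturation gene higher and 0 ribosome biogenesis and 2 chaperone genes lower. The cause was not tested where the construction of an alternative does not show it.

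Of the 12 h cells the G1-like class held 9.67% with a score limit of 0.05 (15.6% at 0 h). At 1500 UMIs the S, G2/M and G1-like classes held 37.7%, 54.1% and 8.18%, and without thinning 50.7%, 46.0% and 3.39% (at 0 h 32.1%, 57.2% and 10.8%, and 47.6%, 48.1% and 4.32%). Leaving out shallow, deep or mitochondria-rich cells, removing 5% of each sum as free RNA and weighting cells to the 0 h phase shares kept the counts of genes higher and lower and of called members in the 9 lists tested within 1.5 times. No paired analysis was possible because each condition is 1 culture and the labels give no replicate numbers to the conditions. Limits are the single cultures, counting error at low levels, no solvent control of 12 h in the labels, and near-identical gene copies, among them those of Npm1, Fabp5, Prdx1 and the histone genes, whose reads the counting could split.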

Other observations

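Several gene groups of the 12 h comparison stand outside the sets above. Of 20 genes of antioxidant defence 4 were higher and 1 lower, beside 13.5% and 4.67% of all genes, and 1 was higher and 2 lower under both other scalings. Among them were Prdx1, a peroxiredoxin, at 1123, 906, 1693, 1632 and 865 CPM over the brequinar times (1.51-fold at 12 h, 1.48 to 1.53) and Srxn1, which repairs oxidized peroxiredoxins, 1.78-fold higher (16.1 and 28.6 CPM). Of 13 mitochondrially encoded transcripts 2 were higher, 1 lower and 10 neither, shares near those of all genes, and the median mitochondrial share of cells was 2.73% at 12 h and 3.15% at 0 h. The cytochrome b transcript mt-Cytb stood at 15402, 12448, 8981, 4823 and 4996 CPM and was 1.71-fold lower at 12 h (1.70 to 1.73). The cytochrome oxidase transcript mt-Co1 stood at 837 and 1642 CPM and the ribosomal RNA mt-Rnr1 at 691 and 1225 CPM, 1.96- and 1.77-fold higher. With cells of 10% or more mitochondrial UMIs left out the list had 2 members higher and 1 lower.

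The counts of the lists that follow stand beside 13.5% of all genes higher and 4.67% lower. Of 11 measured host genes of small nucleolar RNAs and nuclear long noncoding RNAs 3 were higher (Malat1, Neat1 and, at 1.51-fold, Snhg8) and 3 lower. The lower ones, Snhg3, Snhg5 and Snhg15, were 2.08-, 2.11- and 2.12-fold lower at 12 h, and Snhg5 stood at 41.3, 114, 19.6, 14.9 and 38.2 CPM, so it was above 0 h at 6 h and below it at 12 h. Of 17 chaperone genes of the endoplasmic reticulum 1 was higher and 2 lower. Manf was 1.66-fold lower (858 and 516 CPM) and Sel1l, of protein retrotranslocation, 1.90-fold higher (45.1 and 85.4 CPM). Of the eosinophil, mast cell and basophil list 2 of 6 measured genes were higher and 1 lower, with Mcpt8, a basophil protease, 1.78-fold lower (55.7 and 31.4 CPM). Siglecf was 2.25-fold higher (19.7 and 44.3 CPM) and Cpa3, a mast cell carboxypeptidase, 1.75-fold higher (337 and 591 CPM), with 53.1 and 741 CPM in free RNA. Their part in these counts was not tested. Of the B lineage list Vpreb3 was 1.95-fold higher and Igll1 1.71-fold lower, at 69.0 and 54.7 CPM at 12 h.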
